A study of Mus musculus with 12 samples.

Results

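Pressure overload was examined in mice that received dantrolene throughout, by comparing the left ventricles of 3 mice with transverse aortic constriction (TAC) with those of 3 sham-operated mice. These 6 libraries, of 12 in the series, were chosen by their labels, and the comparison ran over the 14965 of 25319 genes with enough reads to be tested. All mice were male and of the C57BL/6 strain, 8 weeks old at surgery and 12 weeks old when the ventricle was taken. In the TAC mice a clip narrowed the aortic arch between its 1st and 2nd branches, with the clamp set by a 27-gauge needle. Both dantrolene groups took the drug orally, each day 30 mg per kg, over 4 weeks. The 6 other mice, 3 sham and 3 TAC, were labelled only as controls, and whether they received a vehicle is not stated in the sources used here. The labels name no genetic change in any group, and each library was a mouse of its own.

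Narrowing the aorta forces the left ventricle to pump against raised pressure. Cardiomyocytes answer by enlarging and by switching on a fetal programme that includes skeletal actin (Acta1) and the natriuretic peptides (Nppa and Nppb), while fibroblasts lay down matrix. Dantrolene, a muscle relaxant, holds ryanodine receptors closed, and these are the channels that release calcium from the sarcoplasmic reticulum. Calcium released there drives contraction, and it also feeds the phosphatase calcineurin and its NFAT and MEF2 transcription factors. The study asked about the cardiac ryanodine receptor, Ryr2, together with TNF-α, NF-κB and the NLRP3 inflammasome, a complex that matures interleukin 1β.

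The libraries carried the markers of the labelled tissue. In CPM (counts scaled to library size), 9 ventricular myocyte markers summed to 73237 to 170645 in the 6 dantrolene libraries, against 97 to 270.1 for 9 atrial and 3.52 to 8.87 for 4 skeletal muscle markers. Depth was 25766378 to 37912351 counts per library. One library of each of the 4 groups lay apart from the rest on the first principal component, which held 41.7% of the variance, and in the dantrolene arm these were sham mouse 3 and TAC mouse 1. Genes of at least 5000 exonic bases took 17.0% and 13.5% of their counts outside mitochondrially encoded genes, against 24.3% to 29.2% in the other 4. A further library, TAC mouse 2, had 1.71% of its counts on mitochondrially encoded genes, against 7.54% to 16.8% in the other 5. In sham mouse 3, 389 genes (2.6% of those tested) stood at over 4 times the level of each of the other 5 dantrolene libraries, against 0 to 12 genes in any other single library. Genes that were low by that measure in a single library numbered 74 in TAC mouse 1 and 31 in TAC mouse 2. They numbered 12 in sham mouse 3, 5 in TAC mouse 3 and 0 in sham mice 1 and 2. Values are given per mouse, and medians of gene lists also without the libraries apart.

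No gene passed an adjusted p of 0.05 between TAC and sham in the dantrolene-treated mice (0% called, edgeR's quasi-likelihood test, Benjamini-Hochberg adjustment). At an unadjusted p under 0.05, 159 genes were higher in TAC (1.06% of those tested) and 97 were lower (0.648%). Together these were 1.71% of the genes, where such a cutoff passes 5% of genes on average when nothing differs. These counts hung on single libraries: without TAC mouse 1 they were 491 and 721, without sham mouse 1 89 and 146, without sham mouse 3 138 and 53, and without TAC mouse 2 183 and 171. Without all 4 libraries apart they were 813 and 684, again with 0 genes past the adjusted threshold. The balance of higher and lower genes also moved with the scaling. The counts were 128 and 116 with DESeq2 size factors in edgeR, and 110 and 126 with mitochondrially encoded genes left out. The median difference over all genes was 0.020 in the main scaling, -0.020 with DESeq2 size factors and -0.044 without mitochondrially encoded genes. Small list medians below are subject to the same shift. All 3 TAC mice lay above all 3 sham mice for 434 genes (2.9%) and below them for 293 (1.96%). In simulated counts with the per-gene spread of these libraries, the same test recovered 5.97% of 2-fold, 56.5% of 4-fold and 81.2% of 8-fold changes between these groups among 14809 genes. That was 1 draw, with 67, 69 and 64 changed genes. Each gene was drawn independently around a mean common to all 12 libraries, so no simulated library stood apart. The rates therefore describe the simulation, and recovery in the real libraries was not measured. DESeq2's Wald test called 4 genes (0.0267%), all lower in TAC: Usp18, Zfp36, Itgal and Cxcl1, each with an adjusted p of 0.0429 and each lower in 3 of 3 TAC mice. limma's voom fit with sample quality weights called 0, with 848 genes (5.67%) at an unadjusted p under 0.05, and DESeq2 had 336 (2.25%). The genes below are those with the smallest p in each direction and members of gene lists, and none passed the adjusted threshold in edgeR, where every adjusted p in this comparison rounds to 1.

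Of the 12 lower genes with the smallest p, 4 were immediate early genes, which factors already present in the cell switch on within minutes of a stimulus, and 2 were chemokines. All 12 separated the groups completely, as the plot of these genes shows, against 1.96% of all genes that were lower without overlap. Choosing genes by smallest p in these same libraries favours such separation, so it is a description. Stretches of promoter are given for 4 of them, because each holds a motif bound by a factor that relays calcium, growth or inflammatory signals. RefSeq's promoter table (build GRCm38.p6) matched 8 of the 12 by symbol. Each run is the 250 bases before the start on the gene's own strand, with motif matches in capitals. The matches begin 58 bases before the start in Zfp36, 143 in Dusp1, 62 and 219 in Plk2, and 71 and 70 in Cxcl1.
Zfp36, chr7:28379229-28379478, minus strand, CArG box (serum response factor): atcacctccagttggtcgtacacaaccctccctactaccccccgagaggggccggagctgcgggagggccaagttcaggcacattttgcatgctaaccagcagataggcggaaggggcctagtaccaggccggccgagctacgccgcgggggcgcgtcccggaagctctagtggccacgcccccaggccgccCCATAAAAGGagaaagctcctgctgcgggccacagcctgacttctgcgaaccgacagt
Dusp1, chr17:26508473-26508722, minus strand, cAMP response element: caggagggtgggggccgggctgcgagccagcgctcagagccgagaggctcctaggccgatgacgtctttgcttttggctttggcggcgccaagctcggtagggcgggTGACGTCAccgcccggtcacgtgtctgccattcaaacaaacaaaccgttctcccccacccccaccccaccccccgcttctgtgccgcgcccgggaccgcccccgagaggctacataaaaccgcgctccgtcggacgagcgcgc
Plk2, chr13:110394794-110395043, plus strand, cAMP response element and, farther from the start, an interferon-stimulated response element: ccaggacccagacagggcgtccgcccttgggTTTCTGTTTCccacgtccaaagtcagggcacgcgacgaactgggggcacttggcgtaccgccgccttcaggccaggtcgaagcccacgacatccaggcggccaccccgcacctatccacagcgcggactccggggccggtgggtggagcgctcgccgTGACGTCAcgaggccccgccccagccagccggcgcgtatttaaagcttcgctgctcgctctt
Cxcl1, chr5:90890995-90891244, plus strand, overlapping NF-κB site matches: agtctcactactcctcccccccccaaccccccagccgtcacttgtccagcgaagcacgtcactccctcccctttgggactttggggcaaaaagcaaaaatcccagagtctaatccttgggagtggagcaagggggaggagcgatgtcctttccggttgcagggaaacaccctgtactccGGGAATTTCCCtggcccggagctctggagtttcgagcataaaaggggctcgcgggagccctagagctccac
Searched on both strands over the same 250 bases of 32851 windows, the CArG box was found in 1.47%, the cAMP response element TGACGTCA in 1.55%, an NF-κB site in 3.9% and the interferon-stimulated element (GAAA, any pair of bases, GAAA) in 2.98%. Counted over the 27025 genes these were 1.62%, 1.77%, 4.46% and 3.46%. Among the 23 immediate early genes with a window, 2 held a CArG box, 3 the cAMP response element and 5 an NF-κB site (8.7%, 13% and 21.7%). The 4 lower genes shown were picked for their matches. Hlx, Ccl3, Melk and Junb, the other lower genes with a window, held none of these motifs. Of the 12 higher genes with the smallest p, 10 had a window. Among them Itgb6 held a CArG box and Fam107a an NF-κB site. A match describes the letters only, and binding was not measured.

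Zfp36 (ENSMUSG00000044786.5, chromosome 7, 28376784 to 28380253, minus strand) encodes tristetraprolin, which binds AU-rich mRNAs such as that of Tnf and speeds their decay. Its level was 284, 157 and 299.9 CPM in the sham mice and 33.9, 75.3 and 65.3 CPM in the TAC mice. Every TAC mouse lay below every sham mouse, by -2.09 ± 0.46 (SE) on the log2 scale (unadjusted p = 0.000682). Ier2, another gene of the immediate early class, measured 245, 152 and 388 CPM in the sham mice and 82.2, 95.7 and 85.2 CPM in the TAC mice. The TAC values were close together and all below the lowest sham value, a difference of -1.58 ± 0.36 (SE). For Dusp1, a phosphatase that switches off MAP kinases, the levels were 671, 339 and 723 CPM in the sham mice and 129.6, 298 and 65.1 CPM in the TAC mice. The groups did not overlap, though TAC mouse 2 approached sham mouse 2, and the difference was -1.81 ± 0.55 (SE). Junb, a subunit of the AP-1 transcription factor, had 284, 139.6 and 497 CPM in the sham mice and 37.7, 124 and 107 CPM in the TAC mice, without overlap. Plk2, a polo-like kinase induced by activity and stress, stood at 57.9, 38.5 and 33.9 CPM in the sham mice and 14.5, 18.2 and 16.6 CPM in the TAC mice, also without overlap. Per gene length, Dusp1 was the most abundant of these in sham hearts, with a mean FPKM of 248 against 144 for Ier2 and 118 for Zfp36.

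Itgal (ENSMUSG00000030830.16, chromosome 7, 127296260 to 127335138, plus strand) encodes the CD11a chain of the integrin LFA-1. It was measured at 1.95, 2.68 and 4.92 CPM in the sham mice and 0.121, 1.03 and 0.376 CPM in the TAC mice. The lowest sham mouse had more than the highest TAC mouse, and the difference was -2.58 ± 0.61 (SE). Cxcl1 (ENSMUSG00000029380.11, chromosome 5, 90891241 to 90893115, plus strand), which attracts neutrophils, was at 14.3, 5.38 and 30.1 CPM in the sham mice and 0.283, 1.77 and 2.54 CPM in the TAC mice. It was highest in sham mouse 3 and lowest in TAC mouse 1, both among the libraries that stood apart, and differed by -3.42 ± 0.90 (SE) without overlap. Usp18 (ENSMUSG00000030107.9, chromosome 6, 121245906 to 121270917, plus strand), a protease that removes ISG15 and damps interferon signalling, was at 19.6, 8.96 and 17.7 CPM in the sham mice and 5.59, 5.45 and 2.79 CPM in the TAC mice. Its difference of -1.74 ± 0.37 (SE) had the smallest p of all genes (unadjusted p = 0.000425). Ccl3, a chemokine of activated macrophages, was below 1 CPM in every TAC mouse, at 2.22, 0.778 and 2.4 CPM in the sham mice and 0.121, 0.526 and 0.157 CPM in the TAC mice. Ccr7, the receptor that guides lymphocytes and dendritic cells to lymph nodes, had 0 reads in TAC mouse 1, where 3 reads would be 0.121 CPM, and measured 0.556, 0.311 and 1.2 CPM in the sham mice and 0, 0.0631 and 0.094 CPM in the TAC mice. Melk, a kinase of dividing cells, likewise had 0 reads in TAC mouse 1, and measured 0.494, 0.28 and 0.868 CPM in the sham mice and 0, 0.0842 and 0.0626 CPM in the TAC mice. Hlx, a homeobox factor, measured 22.9, 18.7 and 18.6 CPM in the sham mice and 11, 8.96 and 6.11 CPM in the TAC mice. Its sham values were close together, and the difference was -1.21 ± 0.30 (SE).

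**Figure D1:**
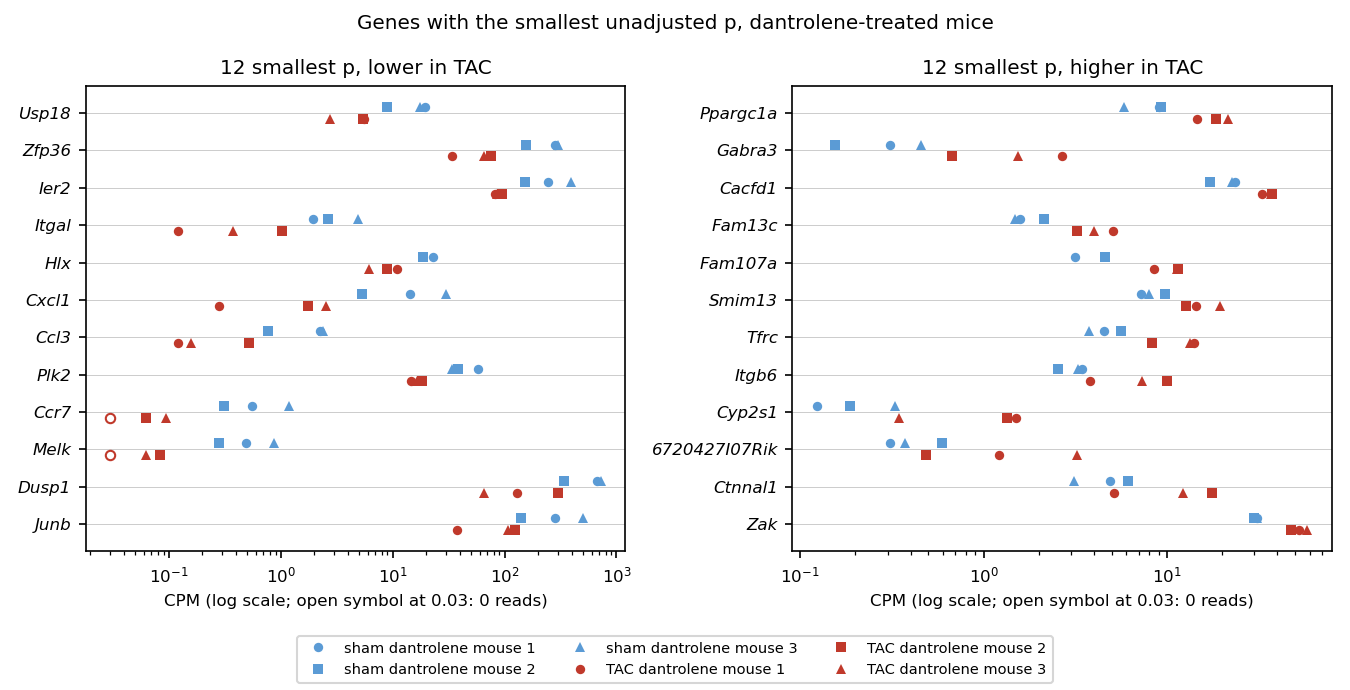
CPM on a log axis of the 12 genes with the smallest unadjusted p in each direction (left, lower in TAC; right, higher in TAC), each symbol a mouse, blue for sham and red for TAC, all treated with dantrolene. All 12 genes on the left and 10 of 12 on the right separate the 3 TAC from the 3 sham mice, and open symbols mark 0 reads. The choice by smallest p favours such separation. Over all genes, 1.96% were lower and 2.9% higher without overlap.

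The genes at the higher end had no common class. Ppargc1a (ENSMUSG00000029167.11, chromosome 5, 51454250 to 51567726, minus strand) encodes PGC-1α, the coactivator that drives mitochondrial gene expression and fatty acid use. Its level was 9.05, 9.27 and 5.83 CPM in the sham mice and 14.5, 18.6 and 21.5 CPM in the TAC mice. All TAC mice were above all sham mice, by 1.18 ± 0.32 (SE) (unadjusted p = 0.00293), while in control mice the difference was 0.063. Tfrc, the transferrin receptor that brings iron into cells, measured 4.51, 5.6 and 3.76 CPM in the sham mice and 14, 8.25 and 13.3 CPM in the TAC mice. The groups did not overlap, and the TAC values lay within the 11, 10.4 and 22.3 CPM of sham control mice except for mouse 2. Cacfd1 (ENSMUSG00000015488.12, chromosome 2, 27009926 to 27021089, plus strand) was at 23.5, 17.1 and 22.5 CPM in the sham mice and 32.9, 37.2 and 36.8 CPM in the TAC mice, a difference of 0.76 ± 0.21 (SE). Itgb6, the β6 integrin chain that activates latent TGF-β, was at 3.46, 2.55 and 3.27 CPM in the sham mice and 3.81, 10.01 and 7.33 CPM in the TAC mice, with TAC mouse 1 only just above the highest sham mouse. Zak, a stress-activated MAP kinase kinase kinase, had 31, 29.7 and 31 CPM in the sham mice and 52.6, 47.7 and 58.3 CPM in the TAC mice and a difference of 0.79 ± 0.26 (SE). Gabra3, a subunit of the GABA-A receptor, was low throughout, at 0.309, 0.156 and 0.455 CPM in the sham mice and 2.67, 0.673 and 1.53 CPM in the TAC mice. Cyp2s1, a cytochrome P450 of extrahepatic tissues, was under 2 CPM in every mouse, at 0.124, 0.187 and 0.331 CPM in the sham mice and 1.5, 1.35 and 0.344 CPM in the TAC mice. Fam13c differed by 1.24, Fam107a by 1.35 and Smim13 by 0.91, in each case without overlap. Ctnnal1, at 4.88, 6.1 and 3.1 CPM in the sham mice and 5.14, 17.5 and 12.3 CPM in the TAC mice, and the predicted gene 6720427I07Rik did overlap between the groups. Of these 12 genes, 10 were also higher in TAC among control mice, where 57.2% of all genes were higher by the fitted value, and 5 of them were at an unadjusted p under 0.05 (4.13% of all genes were, in that direction). All 12 of the lower genes were lower in control mice too, where 42.8% of all genes were, and 8 reached that level (3.8%).

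Acta1 and Nppa lay near their sham levels in TAC dantrolene hearts, while Nppb and Nmrk2 differed widely between mice. Of 14 hypertrophy genes, 9 were higher in TAC (52.3% of all genes were). Only 1 (Nmrk2) was higher at an unadjusted p under 0.05 (1.06% of all genes). None separated the groups, where 2.9% of all genes did so higher in TAC and 1.96% lower. The median difference of mean log2 CPM was 0.048 (-0.016 to 0.34, negative without TAC mouse 2, 0.21 without the libraries apart), where the brackets, here and for later medians, give the range over leaving out each of the 6 libraries in turn and the value without the libraries apart. It stood beside 0.02 over all genes, and was 0.67 in control mice, with 6 members higher at an unadjusted p under 0.05 (4.13% of all genes). The surgery effect was more negative with dantrolene at an unadjusted p under 0.05 for 2 of the 14, Acta1 and Nppa, against 1.27% of all genes. Acta1 (ENSMUSG00000031972.4, chromosome 8, 123891769 to 123894751, minus strand), skeletal α-actin, stood at 232, 324 and 343 CPM in the sham mice and 229.8, 312 and 146 CPM in the TAC mice. TAC mice 1 and 3 were below all sham mice and mouse 2 within their range, a difference of -0.39 ± 0.46 (SE). In control mice Acta1 was at 268, 267 and 314 CPM after sham and 887, 3708 and 2614 CPM after TAC. Nppa, atrial natriuretic peptide, had 267, 343 and 348 CPM in the sham mice and 265, 363 and 112 CPM in the TAC mice, against 531, 1926 and 2015 CPM in TAC control mice. Nppb, brain natriuretic peptide, gave another picture, with 504, 687 and 889 CPM in the sham mice and 2135, 789.6 and 164 CPM in the TAC mice. TAC mouse 1 was above, TAC mouse 2 within and TAC mouse 3 below the sham range, and sham dantrolene mice were themselves above the 365, 323 and 360.0 CPM of sham control mice. Nmrk2, a nicotinamide riboside kinase induced in stressed muscle, followed the same order over mice, at 3.46, 3.58 and 8.64 CPM in the sham mice and 40.6, 8.04 and 2.79 CPM in the TAC mice. Ankrd1, a stretch-responsive titin-binding protein, was at 173, 124 and 138 CPM in the sham mice and 111, 135 and 216 CPM in the TAC mice, with TAC mouse 3 highest and TAC mouse 1 lowest. Myh7, the fetal myosin heavy chain, was at 132, 33.2 and 25.2 CPM in the sham mice and 24.4, 197 and 70.6 CPM in the TAC mice, and its high values were in sham mouse 1 and TAC mouse 2.

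**Figure D2:**
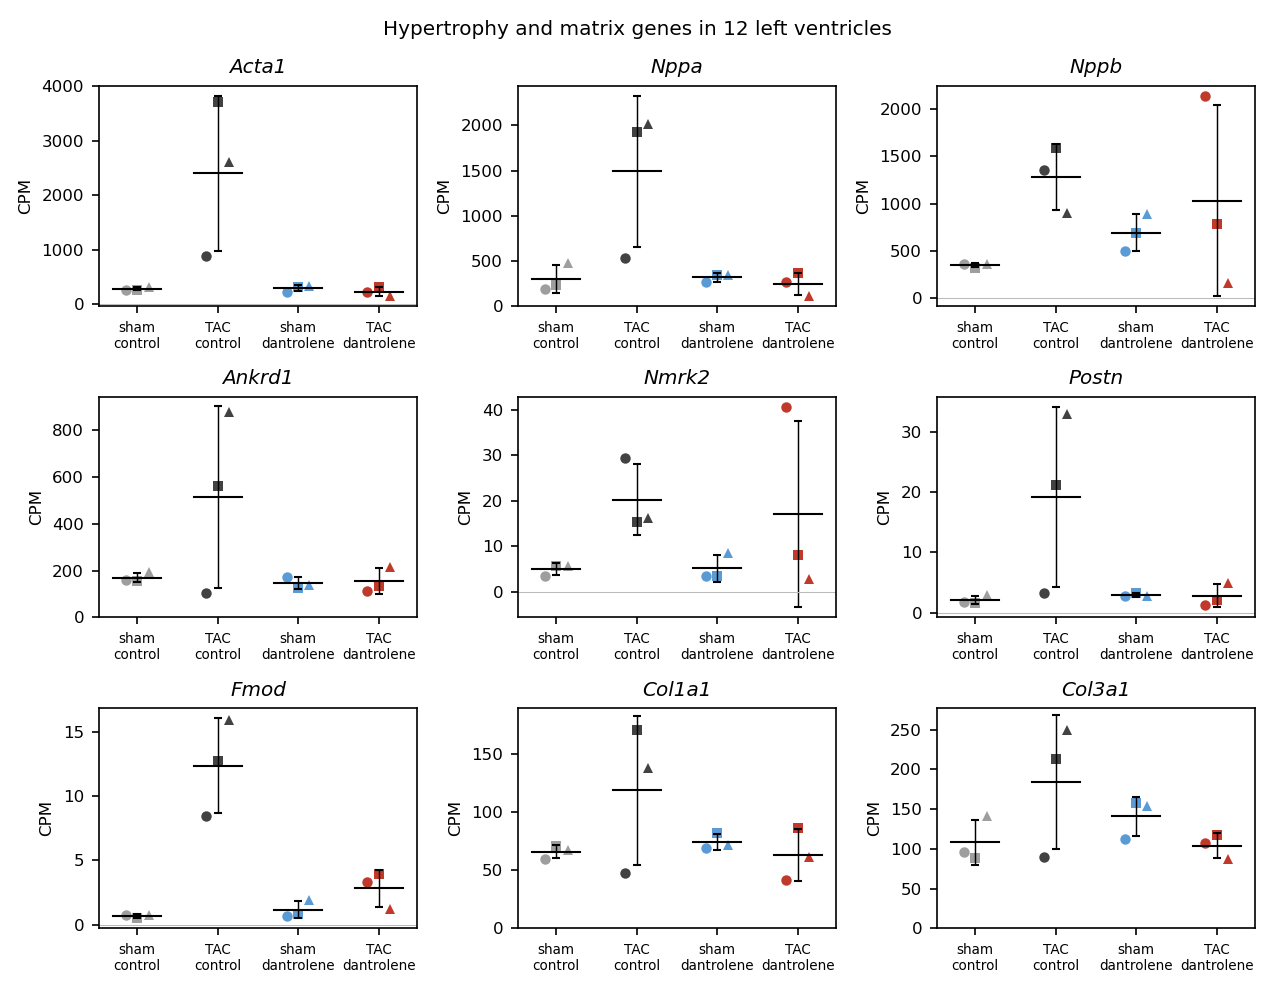
CPM of 9 hypertrophy and matrix genes in the 4 groups of 3 mice on linear axes, with horizontal lines at group means, bars of 1 SD and a symbol for each mouse (circle 1, square 2, triangle 3). Acta1, Nppa and Postn of TAC dantrolene mice lie at the level of the sham groups, whereas Nppb and Nmrk2 spread widely, with mouse 1 highest.

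Contractile and calcium genes differed by little on the median. Among 20 sarcomere and Z-disc genes, 15 were higher, with a median of 0.18 (0.092 to 0.26, 0.13 without the libraries apart), and in control mice 6 were higher (53.5% of all genes were, and 46.5% were lower), with a median of -0.12. Nebl, nebulette of the Z-disc, was at 9.36, 15.2 and 9.96 CPM in the sham mice and 24.2, 11.6 and 27.1 CPM in the TAC mice, above sham in mice 1 and 3 only. Tcap, telethonin of the Z-disc, was at 2217, 2001 and 5091 CPM in the sham mice and 2285, 1146 and 1992 CPM in the TAC mice, with sham mouse 3 highest and the groups overlapping. Of 30 calcium handling genes 18 were higher, and the median was 0.13 (0.019 to 0.21, 0.13 without the libraries apart). At an unadjusted p under 0.05 there were 0 of them in either direction, where 1.71% of all genes were. Ryr2, the channel that dantrolene is meant to hold closed, measured 205, 309.8 and 115 CPM in the sham mice and 179.6, 309 and 367 CPM in the TAC mice. Sham mouse 3 was the lowest and TAC mouse 3 the highest, and the groups overlapped (difference 0.44 ± 0.38 (SE)). Atp2a2, the SERCA2 pump that returns calcium to the store, ran from 3148 CPM in sham mouse 3 and 3108 CPM in TAC mouse 1 to 10434 CPM in TAC mouse 3. The adult myosin heavy chain Myh6 had its lowest values in the same pair of mice, at 11033, 11622 and 4192 CPM in the sham mice and 3152, 18872 and 14696 CPM in the TAC mice. Slc8a1, the sodium-calcium exchanger, was at 13.7, 21.2 and 7.81 CPM in the sham mice and 7.13, 30.6 and 25.5 CPM in the TAC mice, again lowest in those mice. Cacna2d1, an accessory subunit of the L-type calcium channel, was at 13.5, 14.8 and 8.64 CPM in the sham mice and 14.1, 11.8 and 28.2 CPM in the TAC mice, high only in TAC mouse 3. Cacng6, another such subunit, measured 3.58, 3.48 and 3.51 CPM in the sham mice and 1.78, 3.6 and 2.57 CPM in the TAC mice, overlapping, whereas in control mice it was 3.19, 2.93 and 2.83 CPM after sham and 0.444, 0.852 and 0.647 CPM after TAC. The difference between these surgery effects was 1.78 ± 0.51 (SE) (unadjusted p = 0.00446, adjusted p of 1 in edgeR). The ion channel list had 15 of 23 members higher, with a median of 0.038 (-0.08 to 0.32, negative without sham mouse 3, TAC mouse 2 or TAC mouse 3, 0.22 without the libraries apart), against 4 higher and a median of -0.49 in control mice.

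Calcineurin removes phosphate from NFAT factors so that they enter the nucleus. The calcineurin, NFAT and MEF2 list had 14 of 19 members higher and a median of 0.14 (0.079 to 0.45, 0.40 without the libraries apart). In control mice it was 0.0036. Ppp3cb, a catalytic subunit of calcineurin, was at 16.9, 14.7 and 15.3 CPM in the sham mice and 14.1, 30.1 and 41.5 CPM in the TAC mice (unadjusted p = 0.0407), with TAC mouse 1 below the sham mice. Nfatc3, an NFAT factor, was at 8.47, 9.36 and 6.2 CPM in the sham mice and 10.9, 11.7 and 14.9 CPM in the TAC mice, without overlap. Mef2c, of the MEF2 factors, was at 9.58, 8.8 and 8.85 CPM in the sham mice and 11.7, 9.87 and 18.8 CPM in the TAC mice, also without overlap, though TAC mouse 2 was close to the sham mice. Rcan1, a calcineurin inhibitor that NFAT induces, was high in 2 of 3 TAC mice, at 118, 94.7 and 104 CPM in the sham mice and 197, 218 and 71.5 CPM in the TAC mice. Adrenergic signalling genes gave a median of 0.063 (-0.18 to 0.28, negative without sham mouse 3 or TAC mouse 2, 0.058 without the libraries apart). Renin-angiotensin and endothelin genes gave one of 0.23 (0.11 to 0.41, 0.33 without the libraries apart), beside 0.19 in control mice.

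Matrix genes differed by little on the median in the dantrolene arm. There 14 of 40 collagen and matrix genes were higher in TAC, and the median difference was -0.073 (-0.10 to -0.011, -0.052 without the libraries apart). Of them 1 (Fmod) was higher at an unadjusted p under 0.05 (1.06% of all genes), while 0 separated the groups in either direction (2.9% of all genes did so higher in TAC and 1.96% lower). In control mice 40 of 40 were higher (53.5% of all genes were), with a median of 0.59 and 13 at that level (4.13% of all genes). For 7 matrix genes the surgery effect was more negative with dantrolene at an unadjusted p under 0.05 (1.27% of all genes). Col1a1, the main chain of type I collagen, was at 69.2, 81.8 and 72.1 CPM in the sham mice and 41.4, 86.2 and 61.5 CPM in the TAC mice. Col3a1, of type III, was at 113, 157 and 153 CPM in the sham mice and 107, 118 and 87.1 CPM in the TAC mice. Both overlapped between the groups. Postn, the periostin of activated fibroblasts, had 2.75, 3.27 and 2.81 CPM in the sham mice and 1.3, 2.12 and 4.92 CPM in the TAC mice, against 3.29, 21.2 and 32.9 CPM in TAC control mice. TAC dantrolene mouse 3 was the highest of the treated mice, and the difference was -0.081 ± 0.66 (SE). Fmod, fibromodulin, which binds collagen fibrils, was the matrix gene with the smallest p, at 0.711, 0.871 and 1.94 CPM in the sham mice and 3.32, 3.98 and 1.22 CPM in the TAC mice. Mice 1 and 2 of TAC were above all sham mice and mouse 3 was not, and their values were below the 8.48, 12.7 and 15.9 CPM of TAC control mice. Col16a1 was at 5.99, 5.85 and 7.36 CPM in the sham mice and 7, 14.7 and 8.39 CPM in the TAC mice, overlapping.

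Activated fibroblast genes split evenly, 11 higher and 11 lower of 22, with a median of 0.066 (-0.10 to 0.27, negative without sham mouse 1 or sham mouse 2, 0.33 without the libraries apart). In control mice it was 1.02, with 18 higher. Ctgf, a secreted matricellular protein, was at 57.7, 71.5 and 89.3 CPM in the sham mice and 37.8, 189.9 and 44.5 CPM in the TAC mice, high only in TAC mouse 2. Thbs1, thrombospondin 1, likewise reached 158 CPM in TAC mouse 2, against 3.32 and 14.2 CPM in the others and 19.8, 6.97 and 30.9 CPM in sham. Wisp1, a Wnt-induced secreted protein, was low but without overlap, at 0.278, 0.218 and 0.0413 CPM in the sham mice and 0.486, 1.01 and 0.532 CPM in the TAC mice. Gdf15, a stress-induced cytokine, was at 1.58, 1.31 and 2.19 CPM in the sham mice and 3.4, 5.41 and 1.03 CPM in the TAC mice, high in TAC mice 1 and 2 only. Resting fibroblast markers had a median of 0.16 (0.12 to 0.38, 0.18 without the libraries apart), with 12 of 14 higher, among them the transporter Abca8a at 13.1, 15.6 and 19.8 CPM in the sham mice and 22.4, 23.3 and 27.8 CPM in the TAC mice. In TGF-β signalling 13 of 19 genes were higher, with a median of 0.16 (0.029 to 0.36, 0.28 without the libraries apart). Skil, an inhibitor of Smad transcription that TGF-β induces, was at 1.76, 3.08 and 1.61 CPM in the sham mice and 3.6, 5.41 and 4.57 CPM in the TAC mice, without overlap (unadjusted p = 0.0386).

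Of the pathway that the study named, the TNF and NF-κB list had 18 of 27 members higher and a median of 0.051 (-0.069 to 0.17, negative without sham mouse 3, TAC mouse 1 or TAC mouse 2, -0.031 without the libraries apart). In it 1 member, Ccl2, was lower at an unadjusted p under 0.05 (0.648% of all genes). Tnf itself was at 1.82, 1.12 and 2.44 CPM in the sham mice and 0.81, 0.863 and 0.313 CPM in the TAC mice. The TAC mice were below the sham mice without overlap, by -1.43 ± 0.70 (SE) (unadjusted p = 0.0635). Nfkb1, the p105/p50 subunit, was at 22.9, 23.8 and 14.4 CPM in the sham mice and 11.7, 36.8 and 23.9 CPM in the TAC mice, lowest in sham mouse 3 and TAC mouse 1. Ccl2, a chemokine for monocytes, was at 11.2, 6.13 and 14.3 CPM in the sham mice and 6.6, 3.39 and 5.07 CPM in the TAC mice, with TAC mouse 1 just above the lowest sham mouse. In the NLRP3 list 7 of 16 genes were higher, and the median was -0.076 (-0.23 to 0.16, positive without sham mouse 3 or TAC mouse 3, -0.17 without the libraries apart). Nlrp3 was at 0.865, 0.933 and 0.372 CPM in the sham mice and 0.081, 1.07 and 0.313 CPM in the TAC mice, under 2 CPM in every mouse. Casp1, the protease of the complex, was at 1.36, 1.37 and 0.992 CPM in the sham mice and 0.607, 0.252 and 1.44 CPM in the TAC mice. Il1b was at 4.05, 0.809 and 9.55 CPM in the sham mice and 0.486, 0.842 and 0.157 CPM in the TAC mice (unadjusted p = 0.00807), and its high values were in sham mice 1 and 3. In control mice Il1b was at 6.49, 1.15 and 0.529 CPM after sham and 0.266, 0.346 and 0.647 CPM after TAC.

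Interferon response genes were lower in 27 of 30 cases, against 47.7% of all genes. Their median was -0.46 (-0.78 to -0.22, -0.52 without the libraries apart), and in control mice it was 0.55 with 26 of 30 higher. Besides Usp18, Ifit3, which binds foreign RNA ends together with Ifit1, passed an unadjusted p of 0.05, at 10.5, 11.2 and 8.31 CPM in the sham mice and 3.4, 3.85 and 6.58 CPM in the TAC mice. The 3 TAC mice were below the 3 sham mice. Ifit3 in control mice was at 8.92, 6.2 and 7.56 CPM after sham and 5.55, 13.4 and 18.1 CPM after TAC, and the surgery effects differed by -1.83 ± 0.58 (SE). Cxcl10, an interferon-induced chemokine, was at 0.402, 1.37 and 1.24 CPM in the sham mice and 0.607, 0.379 and 0.376 CPM in the TAC mice, overlapping through sham mouse 1. Irf9, a subunit of the interferon-activated factor ISGF3, was at 32.3, 23.6 and 28.4 CPM in the sham mice and 26.4, 15.1 and 14.1 CPM in the TAC mice, overlapping through TAC mouse 1. By summed level the list did not separate the groups, with 463, 357 and 788 CPM in sham and 832, 242 and 242 CPM in TAC. Ifi27l2a, singled out after its values were seen, made up much of the sum in the libraries apart, with 297 CPM in TAC mouse 1 and 231 CPM in sham mouse 3, and 19.6 to 56.8 CPM in the other 4.

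Chemokines and their receptors were lower in 21 of 24 cases, with a median of -0.52 (-1.10 to -0.35, -0.79 without the libraries apart). At an unadjusted p under 0.05, 7 were lower, against 0.648% of all genes, and 5 were lower without overlap, against 1.96%. Besides Cxcl1, Ccl3 and Ccl2, the receptor Cxcr4, which holds leukocytes where its ligand is made, was at 8.59, 6.97 and 7.07 CPM in the sham mice and 4.58, 4.17 and 2.29 CPM in the TAC mice, without overlap. The receptor Ccr1 of monocytes and neutrophils was at 2.63, 2.21 and 3.02 CPM in the sham mice and 1.21, 1.05 and 1.66 CPM in the TAC mice, also without overlap. Lymphocyte markers were lower in 13 of 14 cases with a median of -0.90 (-1.34 to -0.50, -0.94 without the libraries apart). They summed to 22.4, 18.9 and 42.4 CPM in sham and 35.3, 14 and 11 CPM in TAC mice, so that TAC mouse 1 was within the sham range. Ighm, the heavy chain of IgM, singled out after its values were seen, held most of the sum in that mouse (20.9 CPM). Nkg7, of cytotoxic granules, was at 0.618, 0.778 and 1.61 CPM in the sham mice and 0.243, 0.484 and 0.157 CPM in the TAC mice, without overlap. Cd3g, of the T cell receptor complex, was at 0.402, 0.342 and 0.331 CPM in the sham mice and 0.243, 0.0631 and 0.0626 CPM in the TAC mice, without overlap and with 3 reads or fewer in TAC mice 2 and 3. In whole tissue, fewer cells of a type and less RNA per cell cannot be told apart.

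Other leukocyte lists moved with single libraries. Neutrophil markers (7 tested) summed to 7.88, 8.28 and 86.1 CPM in sham and 30.9, 9.07 and 4.32 CPM in TAC mice, and S100a9, a neutrophil calcium-binding protein, was at 1.67, 1.43 and 35.8 CPM in the sham mice and 8.1, 1.94 and 0.157 CPM in the TAC mice. The high values belonged to sham mouse 3 and TAC mouse 1. Their part in the chemokine and lymphocyte values was not tested. Macrophage markers had a median of -0.13 (-0.47 to 0.20, positive without sham mouse 3 or TAC mouse 3, -0.14 without the libraries apart), 0.43 in control mice. Cd163, a scavenger receptor of resident macrophages, went the other way from the list, at 4.08, 5.97 and 4.38 CPM in the sham mice and 8.34, 9.66 and 6.48 CPM in the TAC mice, without overlap. MHC class II genes had a median of -0.30 (-0.59 to -0.025, -0.40 without the libraries apart) and complement genes one of -0.0011 (-0.22 to 0.23, positive without sham mouse 3 or TAC mouse 2, 0.16 without the libraries apart). Cell cycle genes were lower in 21 of 23 cases with a median of -0.48 (-0.89 to -0.17, -0.38 without the libraries apart), among them Aurkb, a mitotic kinase, at 0.494, 0.871 and 1.57 CPM in the sham mice and 0.405, 0.189 and 0.344 CPM in the TAC mice, without overlap. Ccna2, cyclin A2, was at 0.896, 1.65 and 3.64 CPM in the sham mice and 1.09, 0.757 and 1.13 CPM in the TAC mice, overlapping, and highest in sham mouse 3.

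**Figure D3:**
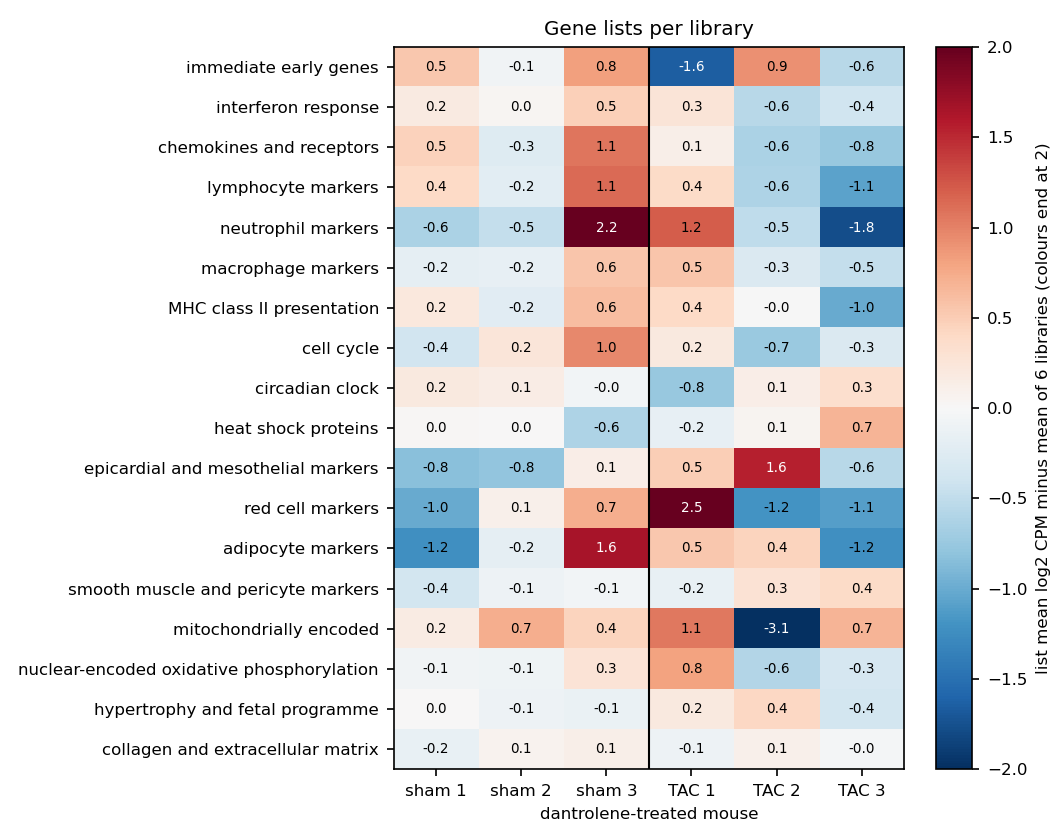
For 18 gene lists, the mean log2 CPM of the tested members in each of the 6 dantrolene libraries, minus the mean of the 6, as colour and number. Sham mouse 3 is high for neutrophil and adipocyte markers, TAC mouse 1 low for immediate early genes and high for red cell markers, and TAC mouse 2 low for mitochondrially encoded genes.

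The immediate early list as a whole had 23 of 28 genes lower and a median of -0.79 (-1.44 to -0.12, -0.014 without the libraries apart). At an unadjusted p under 0.05, 6 were lower (0.648% of all genes) and 1, the nuclear receptor Nr4a3, was higher by 2.82 (1.06%), a gene named after its value was seen. Without overlap, 7 were lower (1.96%). The list was uneven over the TAC mice. Its members summed to 1009.5, 3639.7 and 1444 CPM there and to 4321, 2499 and 5089 CPM in sham, so TAC mouse 2 was within the sham range. In control mice the median was -1.42, with 10 lower at an unadjusted p under 0.05 (3.8% of all genes were).

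Clock genes had a median of -0.42 (-0.79 to 0.22, positive without TAC mouse 1, 0.041 without the libraries apart), with 12 of 19 lower. Nr1d1, the REV-ERBα repressor of the clock, was at 89.9, 106 and 73.4 CPM in the sham mice and 22, 22.3 and 48.9 CPM in the TAC mice, lower in all TAC mice without overlap (unadjusted p = 0.0146). Arntl, the BMAL1 activator that REV-ERBα represses, was at 1.11, 2.46 and 0.0827 CPM in the sham mice and 6.28, 8.52 and 0.877 CPM in the TAC mice. It was high in TAC mice 1 and 2 and within the sham range in mouse 3. Dbp, an output factor of the clock, had the reverse order, at 133, 129.8 and 335 CPM in the sham mice and 31.6, 17.5 and 139 CPM in the TAC mice. Clock, the partner of BMAL1, was at 1.76, 3.27 and 1.57 CPM in the sham mice and 2.87, 4 and 4.04 CPM in the TAC mice, overlapping. TAC mouse 3 therefore lay with the sham mice for Arntl and Dbp, and the time of day of sampling is not stated in the sources used here. Heat shock genes had a median of 0.35 (-0.012 to 0.45, negative without sham mouse 3, 0.13 without the libraries apart). Hspa1a, the inducible HSP70, was at 13.1, 10.8 and 5.7 CPM in the sham mice and 10.5, 14.7 and 129.6 CPM in the TAC mice, high only in TAC mouse 3. Its neighbour Hspa1b was at 11.9, 8.52 and 3.47 CPM in the sham mice and 3.04, 11.1 and 151 CPM in the TAC mice, with the same mouse highest. These paralogs are nearly identical and may share reads. Hspd1, the mitochondrial chaperone HSP60, was at 71.9, 73.5 and 61.1 CPM in the sham mice and 82.3, 98.8 and 144 CPM in the TAC mice. Chordc1, a co-chaperone of HSP90, was at 3.89, 5.51 and 1.74 CPM in the sham mice and 6.92, 7.32 and 10.5 CPM in the TAC mice. For both, all TAC mice were above all sham mice and mouse 3 was highest. Mt2, a metal-binding metallothionein, was at 24.7, 34.3 and 71.2 CPM in the sham mice and 15.8, 22.1 and 20.9 CPM in the TAC mice, with sham mouse 3 highest and the groups apart. The unfolded protein response list had a median of -0.079 (-0.30 to 0.14, positive without sham mouse 1 or TAC mouse 1, -0.025 without the libraries apart), beside 0.21 in control mice. The oxidative stress list had one of -0.088 (-0.35 to 0.072, positive without sham mouse 3 or TAC mouse 2, -0.17 without the libraries apart), beside 0.33.

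Mitochondrially encoded genes turned with a single library. Their median difference was -1.18 (-1.87 to 0.40, positive without TAC mouse 2, -2.04 without the libraries apart). They summed to 104471, 124954 and 80231 CPM in sham and 113472, 13614 and 149234 CPM in TAC mice, with TAC mouse 2 the lowest of all 12 libraries. Without TAC mouse 2 the median was 0.40, and in control mice it was 1.24. mt-Atp6, a subunit of ATP synthase, was at 197, 322 and 294 CPM in the sham mice and 267, 14.5 and 176 CPM in the TAC mice. The mitochondrial ribosomal RNA mt-Rnr2 was at 1586, 2355 and 1586 CPM in the sham mice and 5811, 570.4 and 2779 CPM in the TAC mice, so TAC mouse 2 was lowest for both. Nuclear-encoded subunits of the respiratory chain had a median of -0.055 (-0.45 to 0.17, positive without sham mouse 3, TAC mouse 2 or TAC mouse 3, -0.29 without the libraries apart), with 22 of 47 higher.

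Fatty acid oxidation genes were divided 15 to 15, with a median of 0.0071 (-0.17 to 0.16, negative without sham mouse 2, sham mouse 3 or TAC mouse 3, -0.063 without the libraries apart). Ucp3, a mitochondrial uncoupling protein of muscle, was lower at 45.9, 23 and 20.1 CPM in the sham mice and 7.25, 19.1 and 17.9 CPM in the TAC mice, without overlap (unadjusted p = 0.0444). In the TCA cycle and branched-chain list 23 of 32 genes were higher, with a median of 0.12 (0.0078 to 0.27, 0.10 without the libraries apart). Dld, the dihydrolipoamide dehydrogenase shared by several ketoacid dehydrogenase complexes, was at 59.4, 72.1 and 53.1 CPM in the sham mice and 80.7, 82.7 and 159 CPM in the TAC mice. Acadsb, an acyl-CoA dehydrogenase of isoleucine breakdown, was at 13.5, 12.9 and 10.3 CPM in the sham mice and 16.4, 17.6 and 30.4 CPM in the TAC mice. For both, the TAC mice lay above the sham mice, with mouse 3 highest. Glycolysis and glucose transport genes were higher in 19 of 24 cases, with a median of 0.16 (0.15 to 0.23, 0.13 without the libraries apart), against 7 higher and a median of -0.23 in control mice. Pkm, pyruvate kinase, was at 1554, 1388 and 1368 CPM in the sham mice and 1729.8, 2099 and 1574 CPM in the TAC mice, without overlap. Ubiquitin ligase and autophagy genes had a median of 0.10 (-0.059 to 0.23, negative without sham mouse 3, TAC mouse 2 or TAC mouse 3, 0.12 without the libraries apart), and -0.41 in control mice. Fbxo32, the ligase atrogin-1, was at 15, 14.8 and 20.6 CPM in the sham mice and 15.5, 27.3 and 39.9 CPM in the TAC mice, with TAC mouse 1 in the sham range. Klf15, a factor that restrains hypertrophy, was at 22.9, 32 and 36.5 CPM in the sham mice and 25.5, 41.4 and 54.4 CPM in the TAC mice, with the same mouse in that range.

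Vessel wall and outer surface markers lay above 0 on the median whichever mouse was left out. All 14 of 14 smooth muscle and pericyte markers were higher in TAC (52.3% of all genes were), with a median of 0.29 (0.23 to 0.54, 0.49 without the libraries apart). However, 0 reached an unadjusted p under 0.05 (1.71% of all genes did). Likewise 0 separated the groups, where 2.9% of all genes did so higher in TAC and 1.96% lower. Myh11, smooth muscle myosin, was at 11, 27.6 and 32.3 CPM in the sham mice and 17.7, 44.1 and 52.7 CPM in the TAC mice. Des, desmin, which cardiomyocytes also express, led the summed level, which was 3151, 2842 and 2992 CPM in sham and 3592, 4871 and 3264 CPM in TAC, without overlap, and 3346, 3543 and 4232 CPM in sham control mice. Epicardial and mesothelial markers, of the outer lining of the heart, differed between TAC mice and had a median of 1.33 (0.50 to 1.55, 1.13 without the libraries apart), with 6 of 9 higher and 2 (Krt19 and Upk1b) higher at an unadjusted p under 0.05, against 1.06% of all genes. Krt19, a keratin of mesothelium, was at 0.185, 0.187 and 0.496 CPM in the sham mice and 2.39, 3.47 and 0.376 CPM in the TAC mice. Upk1b, a uroplakin, was at 0.0618, 0.124 and 0.0827 CPM in the sham mice and 1.13, 1.73 and 0 CPM in the TAC mice. Msln, mesothelin, was at 0.216, 0.249 and 1.45 CPM in the sham mice and 3.44, 6.88 and 0.47 CPM in the TAC mice. Krt8, a keratin of simple epithelia, was at 0.247, 0.0622 and 0.248 CPM in the sham mice and 0.162, 1.75 and 0.407 CPM in the TAC mice. TAC mouse 2 was above all sham mice for all 4, mouse 1 for all but Krt8, and mouse 3 for Krt8 alone. In control mice the median was 1.86. Endothelial markers had a median of 0.0011 (-0.15 to 0.15, negative without sham mouse 2, sham mouse 3, TAC mouse 1 or TAC mouse 2, -0.094 without the libraries apart). Red cell markers ranged from 816 CPM in sham mouse 1 to 11636 CPM in TAC mouse 1.

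Genes of xenobiotic metabolism and transport handle foreign compounds. Of 25 members 17 were higher, with a median of 0.15 (0.043 to 0.36, 0.26 without the libraries apart). Cyp1a1, the enzyme induced through the aryl hydrocarbon receptor, was at 8.19, 4.85 and 2.03 CPM in the sham mice and 7.05, 206 and 4.85 CPM in the TAC mice, high only in TAC mouse 2. Cyp1b1, of the same family, was at 0.989, 1.06 and 0.661 CPM in the sham mice and 2.19, 1.87 and 1.16 CPM in the TAC mice, without overlap. Abcb1a, a P-glycoprotein efflux pump, was at 2.19, 2.99 and 3.64 CPM in the sham mice and 3.77, 5.43 and 5.67 CPM in the TAC mice, also without overlap. Cyp2e1, an ethanol-inducible P450, was at 0.247, 0.902 and 5.62 CPM in the sham mice and 0.364, 0.442 and 0.626 CPM in the TAC mice, high only in sham mouse 3.

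**Figure D4:**
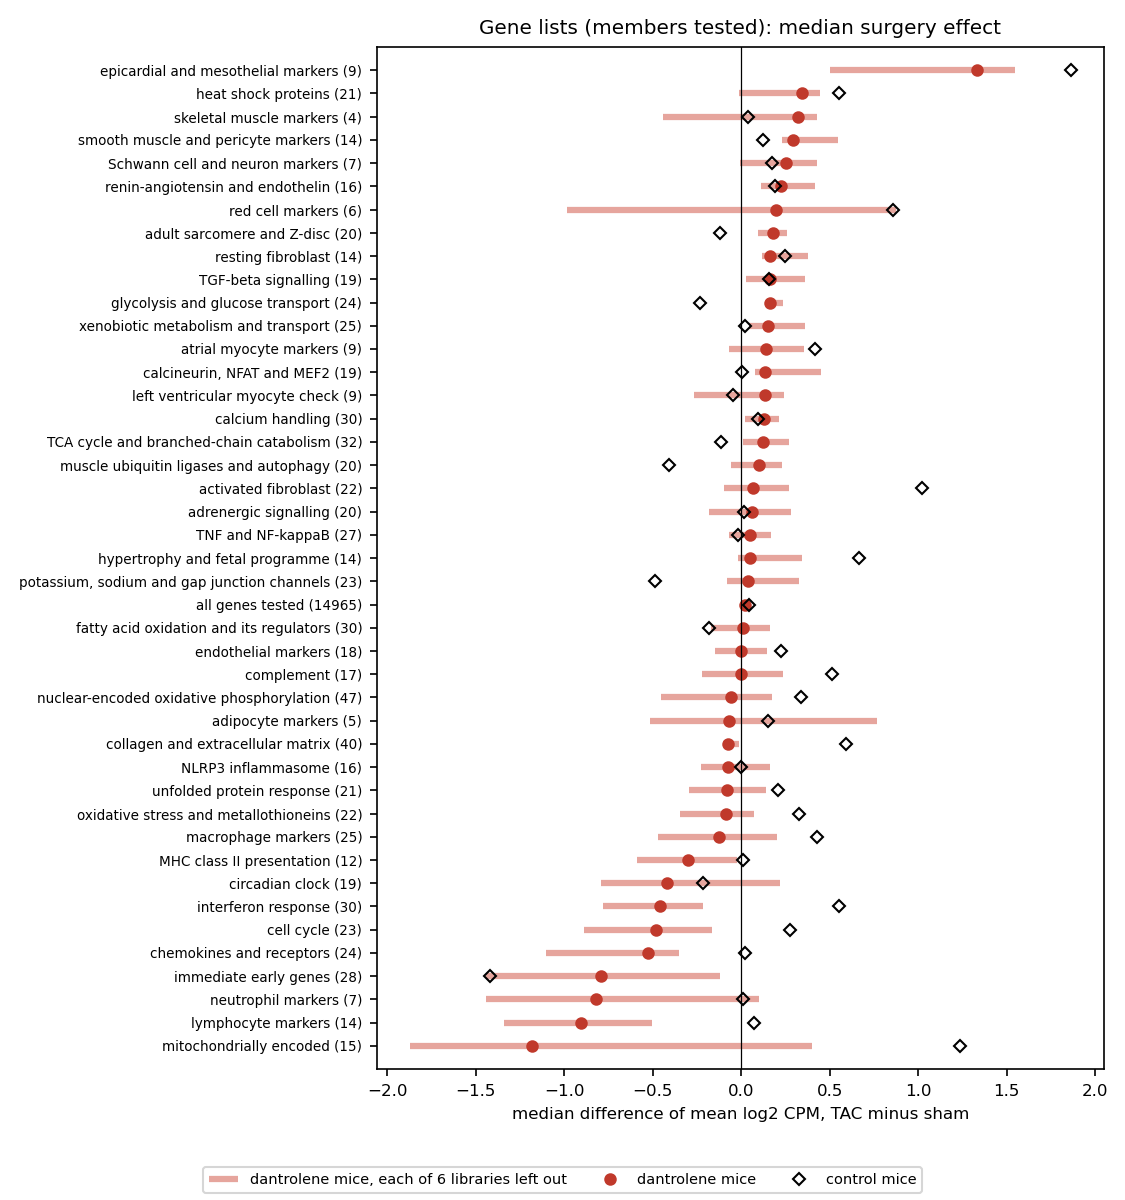
Median difference of mean log2 CPM between TAC and sham for each gene list (number of tested members in brackets), in dantrolene mice as red circles with the range over leaving out each of the 6 libraries as a pale bar, and in control mice as open diamonds. The medians of the activated fibroblast, matrix and hypertrophy lists are 0.066, -0.073 and 0.048 in dantrolene mice and 1.02, 0.59 and 0.67 in control mice.

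Whether the response to TAC depended on dantrolene was tested as the difference of the surgery effects. Again 0 genes passed an adjusted p of 0.05 in edgeR (0% called), with 232 genes more positive in the dantrolene arm at an unadjusted p under 0.05 (1.55%) and 190 more negative (1.27%). These counts were 595 and 1046 without TAC dantrolene mouse 1, 582 and 393 without TAC control mouse 1, and 1121 and 942 without all 4 libraries apart, where 7 genes passed the adjusted threshold, among them Acta1 with an edgeR adjusted p of 0.0253. DESeq2 called 1 gene (0.00668%), Acta1, by -3.51 with an adjusted p of 0.0018. limma's voom fit called 81 (0.541%), 45 positive and 36 negative. Its sample weights were 6.56 for TAC control mouse 2 and 0.233 and 0.676 for TAC control mice 1 and 3. The TAC control mean in that fit therefore rested mostly on 1 mouse. For Acta1 the edgeR difference was -3.47 ± 0.66 (SE) (unadjusted p = 0.000185). TAC control mice were all above the other 9 mice for it. Of the genes named here, voom also called the following, given with edgeR's difference: Nppa at -2.67, Postn at -3.27, Fmod at -2.86, Ifit3 at -1.83, Nr1d1 at -2.06, Itgb6 at 1.82, Plekhf1 at 2.15, Sorcs2 at 2.48, Rasgef1b at 2.05, Klf15 at 1.52 and Cacfd1 at 1.23. Tceal7, at -4.24, Gm10177 and 1500015O10Rik completed the 5 most negative by edgeR's p.

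At the positive end, Plekhf1, an endosomal and lysosomal adaptor, was at 21.9, 34.3 and 35.3 CPM in sham control and 14.9, 6.84 and 9.79 CPM in TAC control mice, and at 12.9, 14.2 and 15 CPM in the sham mice and 22.6, 19.2 and 22.6 CPM in the TAC mice with dantrolene. It was lower after TAC without the drug and higher after TAC with it, and the effects differed by 2.15 ± 0.43 (SE). Sorcs2, a sorting receptor of the VPS10 family, was at 21.4, 31.5 and 32.5 CPM after sham and 5.82, 6.76 and 5.88 CPM after TAC in control mice. With dantrolene it was at 22.1, 12.4 and 8.76 CPM in the sham mice and 11.4, 23.1 and 17.8 CPM in the TAC mice, overlapping, and the effects differed by 2.48 ± 0.52 (SE). Cacfd1 changed places between the arms, at 29.5, 28.7 and 32.4 CPM after sham and 21.8, 22.5 and 21 CPM after TAC in control mice. Neither arm overlapped between sham and TAC, and the effects differed by 1.23 ± 0.30 (SE). Rasgef1b, an exchange factor for small GTPases, gave 2.05 ± 0.52 (SE), and Vash2, a vasohibin with at most 0.605 CPM in any mouse, gave 5.49 ± 1.32 (SE). For Plekhf1, Sorcs2, Cacfd1, Rasgef1b and Vash2 alike, the sham dantrolene mice were below the sham control mice on average. The means were 4.83 against 9.70 CPM for Rasgef1b and 0.086 against 0.398 CPM for Vash2. All these differences therefore take in the sham groups as well as TAC.

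**Figure D5:**
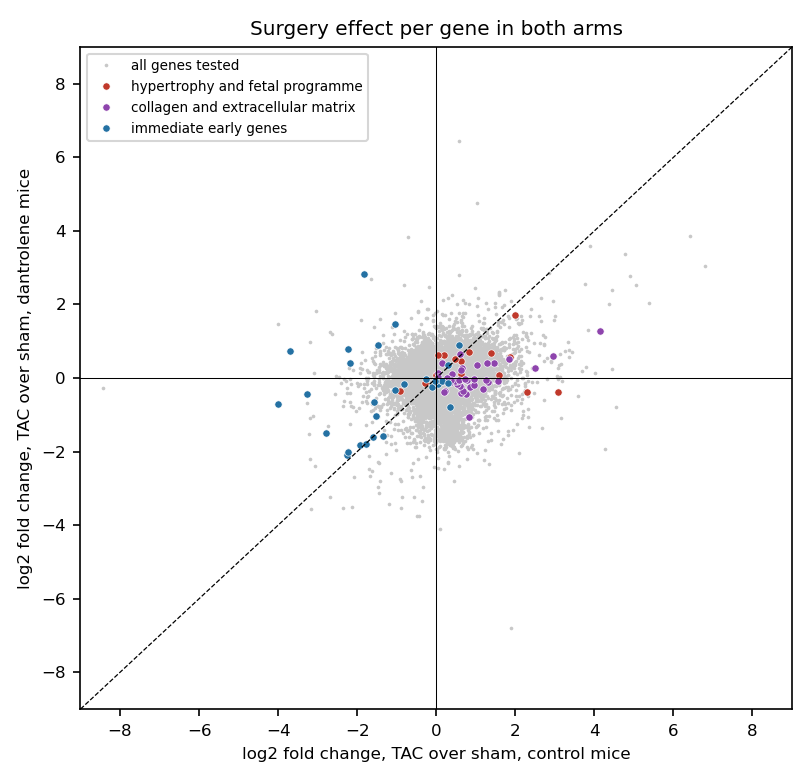
Fitted log2 fold change of TAC over sham for 14965 genes in control mice (horizontal) and dantrolene mice (vertical), with 3 gene lists coloured and the diagonal dashed. All 40 matrix genes and 11 of 14 hypertrophy genes are higher along the horizontal axis, against 14 and 10 along the vertical axis, and part of the immediate early genes lies near the diagonal at the lower left.

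In control mice, too, 0 genes passed the adjusted threshold in edgeR (0% called), with 7.93% of genes at an unadjusted p under 0.05, and all 3 TAC mice lay above all 3 sham mice for 7.54% of genes and below them for 9.82%. The arms shared no library, but were filtered and scaled together, and their p-values shared the estimate of spread. Across genes their surgery effects, as differences of mean log2 CPM, correlated weakly. Pearson's r was 0.133 and Spearman's rho 0.0805 over 14965 genes, which are not independent replicates. Without the libraries apart these were 0.220 and 0.235. Of the 618 genes higher in TAC control mice at an unadjusted p under 0.05 (4.13%), 430 (69.6%) were also higher with dantrolene. Counted likewise by the difference of mean log2 CPM, 52.3% of all genes were higher with dantrolene. The median difference of the 618 genes was 0.25 with dantrolene against 1.14 in control mice. Of the 568 lower in TAC control mice (3.8%), 332 (58.5%) were lower with dantrolene, as were 47.7% of all genes by that measure. The median of the 568 genes was -0.05 with dantrolene against -0.88 in control mice. The control medians come from the values that chose these genes, and are a description. At an unadjusted p under 0.05 in both arms with the same sign there were 37 higher and 18 lower genes, where 1.06% and 0.648% of all genes reached that level in the dantrolene arm.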

How the data were processed

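RNA-seq libraries of left ventricle from 12 mice, numbered 1 to 3 in each of 4 groups, were compared by label. The authors deposited a table of read counts per gene and a table of FPKM values. Per the labels' protocols, poly(A) RNA was made into directional libraries and sequenced as 150-nt pairs, and GRCm38 and the tools TopHat2, bcl2fastq and edgeR stand, without versions, in the submitters' processing notes. How reads were assigned to genes, with which strand setting and annotation, is not stated there. Counts were analysed as deposited. The deposited FPKM values were used only for levels between genes. Library totals were 25766378 to 38363106 counts. In R 4.3.3, edgeR 4.0.16 kept 14965 of 25319 genes (filterByExpr, minimum count 10, total 15, leaving out 0.0418% of counts) and scaled by TMM. All 12 libraries entered a quasi-likelihood fit of 4 group means with 8 residual degrees of freedom and a common biological coefficient of variation of 0.443. P-values are two-sided, adjusted over all genes tested by Benjamini-Hochberg, with a threshold of 0.05. CPM values use the scaled totals, and log2 CPM a prior count of 2. DESeq2 1.42.0 and limma 3.58.1 (voom with sample quality weights) were alternatives, as were other filters and scalings, a replicate block and leaving out libraries. The test was tested on simulated data. No pair of libraries of the same group agreed within sampling noise, and pairs across groups were not compared. GENCODE coordinates (GRCm38) matched 14911 of the genes tested.

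Genes named are, as none passed the threshold, 12 per direction by smallest p, index genes, up to 4 members of each list by smallest p, and 5 per direction, by smallest p, for the difference between arms. Others are marked as chosen after their values were seen. The members, the 43 lists and the tests were chosen with earlier results of these data known. Lists get counts and medians and no test of their own. The labels do not say that a replicate number is shared between groups. Whether mice shared a cage, litter or day of sampling is not given in the sources used here.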

Additional observations from a re-analysis of the deposited data

How the results depend on the processing

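In the dantrolene arm, 0 genes passed the threshold in edgeR under every alternative run, also with each library left out (0 to 0), and DESeq2 called 4. For the difference between arms, leaving out each library gave 0 to 0 calls, leaving out all 4 libraries apart gave 7, DESeq2 1 and voom 81. Unadjusted counts (higher and lower) were 73 and 57 from only the 6 dantrolene libraries, 499 and 194 with the libraries apart as a covariate, and 208 and 278 without a filter. With a replicate block 0 genes were called in either comparison, and the unadjusted counts were 14 and 24. Same-numbered mice had correlations of -0.377, 0.270 and -0.313 across genes, in deviations from their group means. Sham mouse 3 and TAC mouse 1, the libraries apart, had one of 0.500. With 3 mice a group and libraries apart, these values cannot show whether the numbers pair mice.

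Of 1847 gene values over these settings, 24 had the other sign, none past the threshold, and the cause was not tested. Over leaving out each dantrolene library in turn, the values that turned ran as follows: Ankrd1 (-0.23 to 0.24, turned without sham mouse 2 or TAC mouse 3), Nppb (-0.58 to 1.08, turned without TAC mouse 1), Atp2a2 (-0.059 to 0.62, turned without sham mouse 3 or TAC mouse 3), Myh6 (-0.0040 to 0.86, turned without TAC mouse 2), Ctgf (-0.82 to 0.65, turned without TAC mouse 2), Nfkb1 (-0.19 to 0.53, turned without TAC mouse 2), Postn (-0.77 to 0.21, turned without sham mouse 2, TAC mouse 1 or TAC mouse 2), Myh7 (-0.42 to 1.74, turned without TAC mouse 2), Thbs1 (-1.13 to 2.13, turned without TAC mouse 2), S100a9 (-3.63 to 1.12, turned without sham mouse 3), Hspa1b (-0.16 to 3.30, turned without TAC mouse 3) and mt-Rnr2 (-0.18 to 1.22, turned without TAC mouse 1). With the libraries apart left out they were Nppb (-0.38), Postn (0.19) and mt-Rnr2 (-0.25). In the voom fit they were Nppb (-0.35) and mt-Rnr2 (-0.47), and with the replicate block Nppb (-0.041), Ctgf (-0.13) and Thbs1 (-0.31). Of 377 list medians, 14 moved by more than the spread between mice. In the simulation at this per-gene spread, the test recovered few 2-fold changes.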

Other observations

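A set of genes was raised in a single sham heart. The 389 genes at over 4 times the level of each of the other dantrolene libraries in sham mouse 3, counted after 0.1 CPM was added and chosen after these values were seen, had a median of 21.8 CPM there. Their medians were 0.93 and 1.65 CPM in sham mice 1 and 2, and 3.4, 1.41 and 3.6 CPM in TAC mice 1 to 3. In the control arm they were 5.93 CPM in sham mouse 3 and 6.66 CPM in TAC mouse 1, the libraries apart there, and 0.491 to 1.88 CPM in the other 4. Protein-coding genes made up 67.1% of the set, against 90% of all genes tested. Among list members it held the neutrophil genes S100a9 and Retnlg, the interferon genes Ifih1 and Mx1, the lipid droplet gene Cidec, the angiotensin receptor Agtr2, Cyp2e1 and the skeletal muscle ryanodine receptor Ryr1. The way the set was chosen fixed its direction, and all 389 genes had a fitted value lower in TAC. The set held 370 (54.4%) of the 680 genes with a fitted log2 difference below -1 in the dantrolene arm. It also held 10 (10.3%) of the 97 lower genes at an unadjusted p under 0.05. These shares follow from that choice at least in part, and are a description.

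Arntl, Dbp and Nr1d1 split the TAC mice in the same way. TAC mice 1 and 2 had high Arntl with low Dbp and Nr1d1, and TAC mouse 3 lay nearer the sham mice for all 3 genes. The hour of sampling is not given in the sources used here, and its part was not tested.

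TAC mouse 2 held the lowest mitochondrially encoded RNA of all 12 libraries together with the highest Cyp1a1, Ctgf and Thbs1 of the dantrolene arm. TAC mouse 3 held the highest Hspa1a and Hspa1b of that arm.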
